A study of Homo sapiens with 18 samples.

Results

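The expression of 10 genes was followed in the LNCaP and C4-2 prostate cancer cell lines. Of these, 3 are androgen-driven genes that lend their upstream part to gene fusions in prostate cancer, TMPRSS2, SLC45A3 and NDRG1, and 7 encode ETS transcription factors, ETV1, ETV4, ETV5, ERG, ELF3, ELK1 and ELK4. They were chosen by name and matched to the Ensembl gene identifiers of the count tables, which gave 10 of the 60675 genes listed. The rule itself used no measured value.

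ETS factors bind DNA at sites built around a GGAA core and act as activators or repressors of transcription. In many prostate cancers a rearrangement joins the androgen-controlled start of a gene such as TMPRSS2 to the coding part of an ETS gene, so that the androgen receptor comes to drive an ETS factor that the luminal cell normally keeps low. LNCaP carries a rearrangement of ETV1 in which the locus has moved from chromosome 7 into the MIPOL1 region of chromosome 14. ELK4 is known for transcripts that read through from its neighbour SLC45A3.

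RNA Seq was run on 18 libraries, 3 in each of 6 groups. LNCaP is an androgen-dependent line from a lymph node metastasis and C4-2 is an androgen-independent line derived from it, both established cell lines grown in hormone-depleted serum, which the labels call charcoal-stripped and the study's methods dialysed. In each line, a group transfected with the scrambled siRNA siScr received vehicle, a second siScr group received 1 nM of the synthetic androgen R1881 for 72 h, and a group given siRNA pools that target KDM1A together with KDM7A, the dual knockdown, received the same R1881 treatment. KDM1A and KDM7A are histone lysine demethylases, and no library here had only 1 of them knocked down or had the dual knockdown with vehicle. The vehicle is DMSO in the study's sequencing methods and ethanol in its culture methods. The cell line field of the C4-2 vehicle samples names LNCaP and their titles name C4-2, and they were grouped by title. Their profiles lay nearer to the C4-2 R1881 libraries, at a root-mean-square log2 distance of 0.528 to 0.76, than to the LNCaP vehicle libraries, at 0.924 to 1.03. Nothing in the labels says whether the 3 libraries of a group came from separate cultures, so p-values measure the spread between these libraries, which may be technical.

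Total counts per library ranged from 3182604 to 20154243, and C4-2 vehicle replicate 3 was the shallow library, since all others had at least 10485096. All 10 luminal prostate markers were at 1 CPM (counts scaled to library size) or more in every group. Summed leukocyte markers stood at 3.09 to 3.78 CPM in the C4-2 vehicle libraries, with PTPRC alone of 6 at 1 CPM or more, and at no more than 1.28 CPM elsewhere, and summed stromal markers, mostly COL1A1, at 29.1 to 37.3 CPM in C4-2 with vehicle, 17.6 to 24.4 CPM with R1881 and 26.7 to 36.5 CPM with the dual knockdown. COL1A1 rose with the dual knockdown in C4-2 (log2FC 0.58, adjusted p = 0.00915). Summed basal markers stood at 0.175 to 0.51 CPM in LNCaP with vehicle and 2.76 to 3.73 CPM with R1881, and at no more than 0.458 CPM in C4-2 with vehicle and 1.35 to 1.76 CPM with R1881. In the C4-2 vehicle libraries CD3E had at most 1 count, and COL1A2, DCN and LUM had 0 counts. The part of those markers in the values below was not tested. KDM1A fell with the knockdown from a mean of 108 to 51.6 CPM in LNCaP (log2FC −1.05) and from 142 to 16.4 CPM in C4-2 (log2FC −3.12). KDM7A fell from 59.7 to 30.9 CPM in LNCaP (log2FC −0.93) and from 121 to 21.2 CPM in C4-2 (log2FC −2.51). The knockdown was deeper in C4-2 for both targets, and the tested difference in log2FC was −2.04 (adjusted p = 2.36e-09) and −1.56 (adjusted p = 6.06e-07).

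On GRCh38, TMPRSS2 (ENSG00000184012) spans chr21:41464551-41531116, on the minus strand and 2802.8 kb from ERG (chr21:38380027-38661780), with 54 genes between them. SLC45A3 (ENSG00000158715, chr1:205657851-205680459) and ELK4 (ENSG00000158711, chr1:205597556-205631962) lie on the minus strand 25.9 kb apart with no gene between them, so counts per gene cannot tell a read-through transcript from transcripts of each gene. The RefSeq windows of the 250 bases before the start of these neighbours are printed because both genes rose with R1881 while their upstream sequences differ. They come from GRCh38.p14, read 5′ to 3′ on the minus strand at chr1:205680510-205680759 for SLC45A3 and chr1:205632012-205632261 for ELK4, and capitals mark the ETS core CCGGAA or its reverse complement TTCCGG.
SLC45A3: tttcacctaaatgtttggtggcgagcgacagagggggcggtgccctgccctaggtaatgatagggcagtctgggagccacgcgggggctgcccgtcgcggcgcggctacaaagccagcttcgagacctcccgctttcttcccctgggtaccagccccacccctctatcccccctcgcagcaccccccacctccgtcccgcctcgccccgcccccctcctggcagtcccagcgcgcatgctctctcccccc
ELK4: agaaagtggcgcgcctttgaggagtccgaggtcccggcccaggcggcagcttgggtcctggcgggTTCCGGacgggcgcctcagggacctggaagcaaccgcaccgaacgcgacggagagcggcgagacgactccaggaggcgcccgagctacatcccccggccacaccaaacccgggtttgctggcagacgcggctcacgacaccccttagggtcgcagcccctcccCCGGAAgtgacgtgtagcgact
The ELK4 window holds the ETS core at 2 places, starting 185 and 22 bases before the start, and the SLC45A3 window holds none. Windows were found for 6 of the 10 genes, SLC45A3, ETV1, ERG, ELF3, ELK1 and ELK4, and 4 of their 14 windows hold CCGGAA on either strand, against 14.5% of 35116 RefSeq windows. A pair of these windows, both of ETV1, overlap and share the match. AGAACA, the core of androgen receptor sites, or its reverse complement TGTTCT stands in 2 of the 14 windows, the same overlapping pair, which share 1 match, against 12.4% of all windows. These matches describe letters in the windows and not binding.

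The first comparison asked what R1881 does to these genes in cells with siScr. In LNCaP, 7 of the 10 genes had enough counts to be tested, and 5 rose and 1 fell at an adjusted p under 0.05. Over all 17162 genes tested in LNCaP, 46.6% were called, 23.5% higher and 23.2% lower. In C4-2, 8 genes were tested, and 4 rose and 2 fell, where 32.8% of all 16965 genes were called, 17.1% higher and 15.7% lower. The study's added threshold, an absolute log2FC of 1 or more, left 4 of the 7 in LNCaP (12.3% of all genes) and 6 of the 8 in C4-2 (9.07% of all genes). The median log2FC of the members tested was 1.21 in LNCaP and 0.67 in C4-2, beside −0.04 and −0.02 for all genes. The 3 partner genes, which were chosen as androgen-driven, all rose in both lines, with medians of 3.97 and 3.11. Of the ETS members, 2 of 4 rose and 1 fell in LNCaP (median 0.315). In C4-2, 1 of 5 ETS members rose and 2 fell (median −0.11). In bulk libraries, fewer cells with a transcript and less RNA per cell cannot be told apart.

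**Figure D1:**
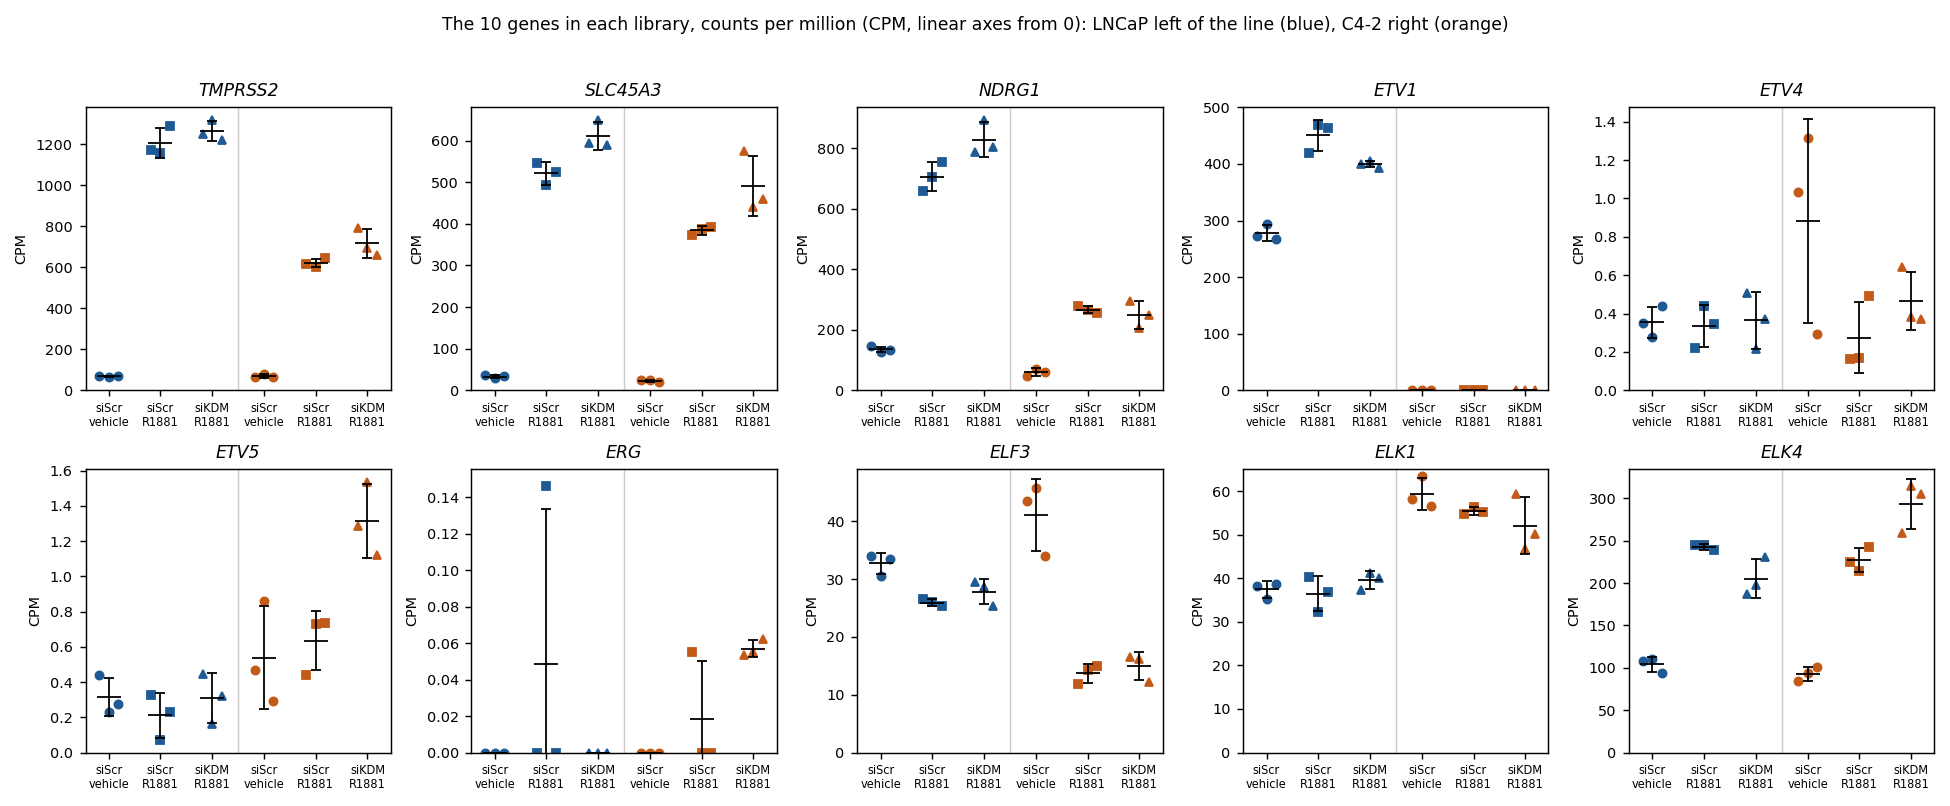
CPM (vertical axis, linear from 0) of the 10 genes in each of the 18 libraries, with LNCaP left of the line in blue and C4-2 right of it in orange. Circles are siScr with vehicle, squares siScr with R1881 and triangles the dual knockdown with R1881, and bars give the mean and SD of 3 libraries. TMPRSS2 stood at 65.0 to 82.2 CPM in all vehicle libraries and at 602 CPM or more in all R1881 libraries, and ETV1 was high in the LNCaP libraries alone.

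TMPRSS2, a membrane serine protease of luminal cells, had 69.1, 65.4 and 69.4 CPM in the LNCaP vehicle libraries and 1173, 1157 and 1289 CPM with R1881. In C4-2 it had 66.4, 82.2 and 65.0 CPM with vehicle and 616, 602 and 645 CPM with R1881. All R1881 libraries lay above all vehicle libraries, and the lines overlapped with vehicle and did not overlap with R1881. The rise was 17.6-fold in LNCaP (log2FC 4.13, SE 0.0657, adjusted p = 1.51e-17) and 8.63-fold in C4-2 (log2FC 3.11, SE 0.1, adjusted p = 9.91e-12). The log2FC was lower in C4-2 than in LNCaP by a tested difference of −1.04 (SE 0.116, adjusted p = 1.48e-06). Of the 9 members tested for a difference between the lines in the R1881 response, 2 were called, TMPRSS2 and ELF3, both lower in C4-2, where 14.0% of 18684 genes were called and 7.95% of the 18684 were lower in C4-2.

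SLC45A3, the gene of the prostate protein prostein, had 36.5, 29.5 and 33.5 CPM in LNCaP with vehicle and 547, 493 and 524 CPM with R1881. The C4-2 libraries had 24.5, 24.3 and 20.1 CPM with vehicle and 372, 388 and 393 CPM with R1881. The groups did not overlap within either line. The rise was 15.7-fold in LNCaP (log2FC 3.97, SE 0.0823, adjusted p = 2.46e-16) and 16.3-fold in C4-2 (log2FC 4.03, SE 0.11, adjusted p = 2.67e-12). The difference between these responses was 0.04 with a 95% interval from −0.24 to 0.33 and did not pass the test (adjusted p = 0.89).

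NDRG1, a gene of differentiation and stress responses (chromosome 8), had 146, 128 and 135 CPM in LNCaP with vehicle and 659.7, 706 and 755 CPM with R1881. Its C4-2 values were 47.6, 71.5 and 61.8 CPM with vehicle and 278, 266 and 257 CPM with R1881. Every R1881 library lay above every vehicle library of its line, and every C4-2 library lay below the LNCaP libraries of the same treatment. The rise was 5.14-fold in LNCaP (log2FC 2.36, SE 0.071, adjusted p = 2.99e-14) and 4.44-fold in C4-2 (log2FC 2.15, SE 0.143, adjusted p = 3.19e-08), and the difference of −0.22 did not pass the test (adjusted p = 0.45).

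ELK4, a ternary complex factor that binds DNA together with serum response factor, rose with R1881 as the partner genes did. It had 109, 109.9 and 93.9 CPM in LNCaP with vehicle and 245, 245 and 239 CPM with R1881. C4-2 cells had 84.2, 94.4 and 101 CPM with vehicle and 225, 215 and 242 CPM with R1881. The groups did not overlap within a line, and the C4-2 and LNCaP libraries overlapped with either treatment. The rise was 2.31-fold in LNCaP (log2FC 1.21, SE 0.0789, adjusted p = 1.23e-09) and 2.45-fold in C4-2 (log2FC 1.29, SE 0.1, adjusted p = 1.73e-07). The difference between the lines was 0.07 (95% interval −0.19 to 0.34, adjusted p = 0.772). MFSD4A on the opposite strand shares 422 exon bases with ELK4, 3.48% of its exons, and the counting did not use strand.

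ELK1, another ternary complex factor, on the X chromosome, was not called with R1881 in either line. It had 38.2, 35.3 and 38.7 CPM with vehicle and 40.3, 32.2 and 36.9 CPM with R1881 in LNCaP, and 58.2, 63.5 and 56.5 CPM with vehicle and 54.7, 56.3 and 55.3 CPM with R1881 in C4-2. The treatments overlapped in LNCaP and in C4-2 the R1881 libraries lay just below the vehicle libraries. The log2FC was −0.05 in LNCaP (95% interval −0.23 to 0.14, adjusted p = 0.687) and −0.11 in C4-2 (95% interval −0.30 to 0.08, adjusted p = 0.387).

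ELF3, an epithelial ETS factor of the ELF group, was the member that fell with R1881 in both lines. In LNCaP it had 34.0, 30.6 and 33.6 CPM with vehicle and 26.5, 26.0 and 25.3 CPM with R1881. In C4-2 it had 43.6, 45.7 and 34.1 CPM with vehicle and 11.9, 14.3 and 14.99 CPM with R1881. No R1881 library reached a vehicle library of its line. The fall was 1.27-fold in LNCaP (log2FC −0.35, SE 0.0835, adjusted p = 0.00249) and 3.06-fold in C4-2 (log2FC −1.61, SE 0.139, adjusted p = 5.71e-07). The tested difference between the lines was −1.28 (SE 0.164, adjusted p = 8.74e-06). ELF3-AS1, an antisense gene, shares 554 exon bases with ELF3 and a sense intronic gene 664, and reads of these genes cannot be told apart from those of ELF3 in the overlaps.

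**Figure D2:**
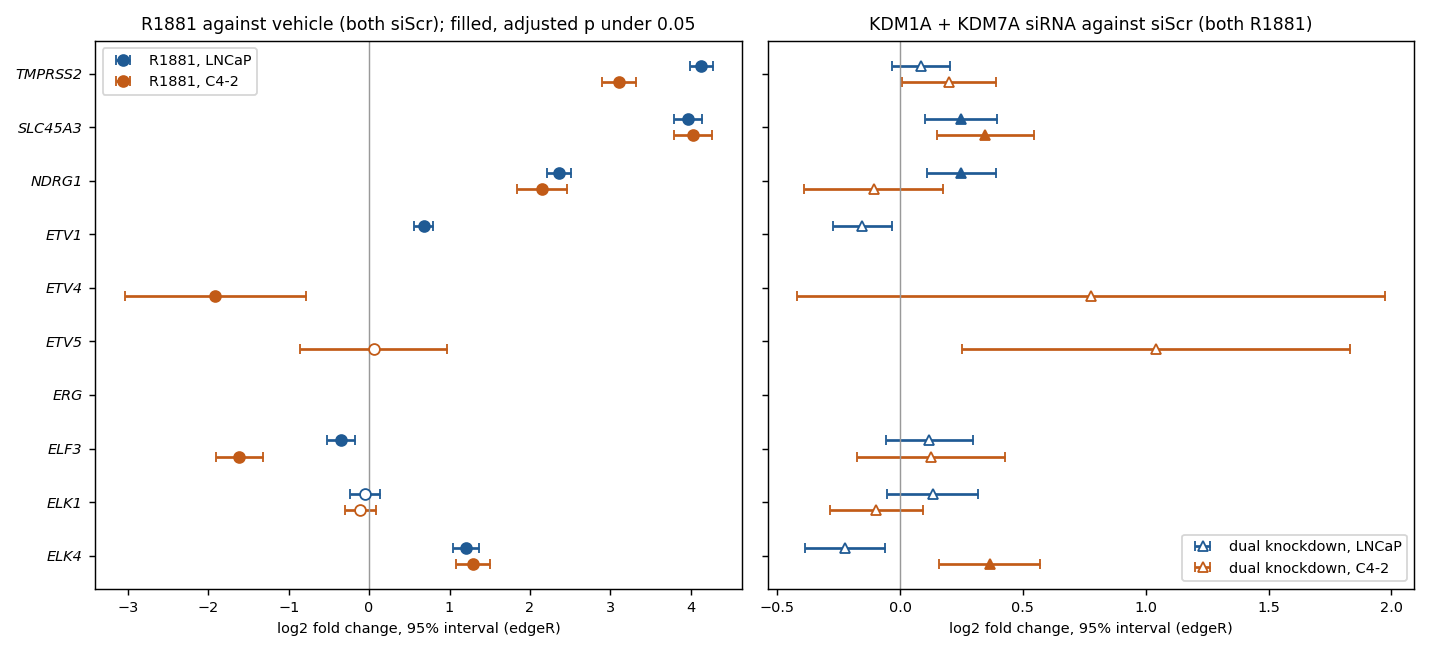
Log2 fold changes (horizontal axis) with 95% intervals for R1881 against vehicle (left, circles) and for the dual knockdown against siScr with R1881 (right, triangles), LNCaP in blue and C4-2 in orange, with filled marks for an adjusted p under 0.05 and no mark where a gene had too few counts to be tested. The left axis runs from about −3 to 4 and the right axis from about −0.5 to 2, so the largest called knockdown value, 0.36 for ELK4 in C4-2, is far below the R1881 values of the partner genes.

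ETV1, an ETS factor of the PEA3 group, was the member that separated the lines. It had 273, 293 and 267 CPM in LNCaP with vehicle, 419.5, 468 and 463 CPM with R1881, and 401, 404 and 394 CPM with the dual knockdown and R1881. The C4-2 libraries held 2, 1 and 0 counts with vehicle, 9, 7 and 2 with R1881, and 6, 4 and 2 with the dual knockdown. No C4-2 library reached 0.5 CPM, and each LNCaP library had 3124 counts or more. Summed over a group and scaled to library size, ETV1 was 3750 times as high in LNCaP as in C4-2 with vehicle, with a 95% interval of counting error from 1280 to 18200. With R1881 the ratio was 1300 (825 to 2200), and with the dual knockdown 1760 (1010 to 3410). Intervals of this kind cover counting error only. In LNCaP, R1881 raised ETV1 1.60-fold (log2FC 0.68, SE 0.0568, adjusted p = 3.35e-08), and no R1881 library overlapped a vehicle library. In C4-2, ETV1 did not pass the filter on low counts, and its 18 counts with R1881 against 3 with vehicle gave a ratio of 4.61 (95% interval 1.35 to 24.4, counting error only).

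The genes beside both places of ETV1 were set beside it. DGKB, a diacylglycerol kinase gene 153.6 kb from ETV1 on the same strand (chr7:14145049-14974777), had 14.5, 18.4 and 16.1 CPM in LNCaP with vehicle and 34.9, 42.4 and 35.5 CPM with R1881. The C4-2 values were 14.6, 14.5 and 17.5 CPM with vehicle and 14.7, 15.2 and 15.1 CPM with R1881. The LNCaP R1881 libraries stood above all other siScr libraries. DGKB rose 2.25-fold with R1881 in LNCaP (log2FC 1.17, adjusted p = 2.71e-08), its log2FC in C4-2 was −0.02 (adjusted p = 0.938), and the tested difference was −1.20 (SE 0.147, adjusted p = 5.22e-06). With vehicle, DGKB did not pass the test between the lines (log2FC −0.12, adjusted p = 0.347).

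MIPOL1, TTC6 and FOXA1 lie together on chromosome 14, MIPOL1 at chr14:37197913-37552361, FOXA1 at chr14:37589984-37596059 and TTC6 at chr14:37595847-38041442. FOXA1 encodes the pioneer factor that opens chromatin for the androgen receptor. All 3 were lower in C4-2, by a log2FC of −0.88 with vehicle and −1.11 with R1881 for MIPOL1, −0.61 and −0.54 for TTC6, and −0.49 and −0.69 for FOXA1. Unlike ETV1, each was well expressed in both lines, with MIPOL1 at a mean of 81.4 CPM in LNCaP and 44.5 CPM in C4-2 with vehicle. TTC6 rose with R1881 in both lines (log2FC 0.34 and 0.43), and FOXA1 fell with R1881 in C4-2 (log2FC −0.33, adjusted p = 0.00367). Of the 10 genes listed for both ETV1 places, 6 were tested for R1881 in LNCaP, of which 3 rose and the rest were not called, and 7 in C4-2, of which 1 rose and 2 fell. Among all genes tested, 46.6% were called in LNCaP and 32.8% in C4-2.

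**Figure D3:**
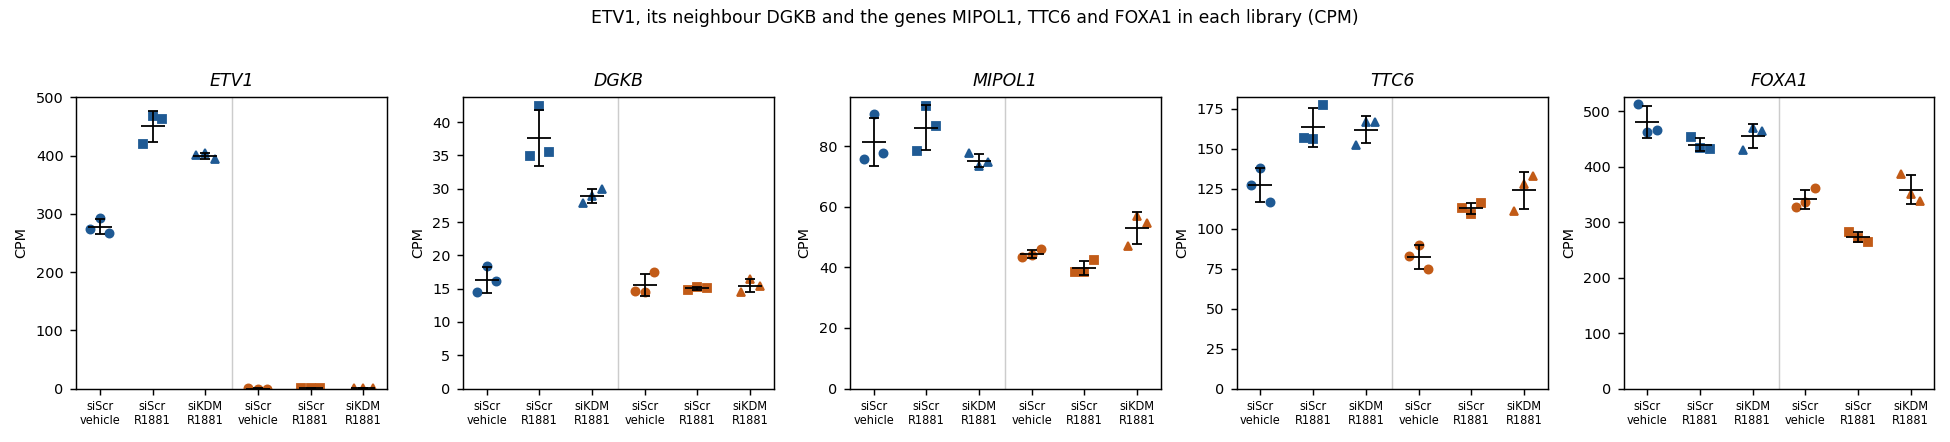
CPM (vertical axes, linear from 0, each panel with its own scale) of ETV1, its chromosome 7 neighbour DGKB and the chromosome 14 genes MIPOL1, TTC6 and FOXA1, in LNCaP (blue, left) and C4-2 (orange, right). Bars give the mean and SD of 3 libraries. ETV1 is near 0 in C4-2, while DGKB keeps 14.5 to 17.5 CPM in the C4-2 siScr libraries and differs between the lines with R1881.

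ETV4 and ETV5, the other PEA3 genes, and ERG, the usual fusion partner of TMPRSS2, were at or near the detection limit. A floor of 3 counts corresponds to 0.139 to 0.874 CPM per library, the highest in C4-2 vehicle replicate 3. ERG had 0 counts in 13 of the 18 libraries, 2 counts in LNCaP R1881 replicate 2, 1 count in C4-2 R1881 replicate 1 and 1 count in each C4-2 dual knockdown library, and it was not tested. ETV4 stood at 0.214 to 0.507 CPM in the 9 LNCaP libraries. In C4-2, ETV4 had 20, 23 and 1 counts with vehicle (1.04, 1.32 and 0.291 CPM) and 3, 3 and 8 counts with R1881 (0.165, 0.169 and 0.49 CPM), and these groups overlapped. Its log2FC with R1881 was −1.91 (SE 0.527, adjusted p = 0.0122), and this call was lost when C4-2 vehicle replicate 2 (−1.62, adjusted p = 0.0837), R1881 replicate 1 (−1.64, adjusted p = 0.0640) or R1881 replicate 2 (−1.65, adjusted p = 0.0607) was left out. ETV5 had 0.0732 to 0.444 CPM in LNCaP, and in C4-2 it had 9, 15 and 1 counts with vehicle and 8, 13 and 12 with R1881, with a log2FC of 0.055 (adjusted p = 0.978).

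The next comparison asked what the loss of both demethylases did in the presence of R1881. It used the same siScr R1881 libraries as the R1881 comparison, so the values of both are not independent. In LNCaP, 2 of the 7 members tested were called, both higher, where 14.2% of all genes were called and 8.27% were higher. In C4-2, 2 of 8 were called, both higher, where 23.5% of all genes were called and 12.7% were higher. The calls had log2FC values of 0.25 to 0.36, under the study's added threshold, which 0.286% of all genes passed in LNCaP and 3.94% in C4-2. The median log2FC of the members was 0.12 in LNCaP and 0.27 in C4-2, beside 0.001 and 0.005 for all genes.

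Among the partner genes, TMPRSS2 had 1249, 1319.7 and 1223 CPM with the dual knockdown in LNCaP, overlapping the siScr R1881 libraries, and 793, 694 and 662 CPM in C4-2, all above them. Neither passed the test, with a log2FC of 0.09 in LNCaP (95% interval −0.03 to 0.20, adjusted p = 0.343) and 0.20 in C4-2 (95% interval 0.007 to 0.39, adjusted p = 0.129). SLC45A3 had 594, 649.5 and 589.8 CPM in LNCaP and 574, 441 and 459 CPM in C4-2, above every siScr R1881 library of its line. It rose 1.19-fold in LNCaP (log2FC 0.25, SE 0.0696, adjusted p = 0.0269) and 1.27-fold in C4-2 (log2FC 0.35, SE 0.0917, adjusted p = 0.0135). NDRG1 had 787, 895.3 and 804 CPM in LNCaP and rose 1.19-fold (log2FC 0.25, SE 0.0665, adjusted p = 0.0216), and it had 295, 205 and 248 CPM in C4-2, overlapping siScr, with a log2FC of −0.11 (95% interval −0.39 to 0.17, adjusted p = 0.607). For all 3 partner genes, every dual knockdown library stood above every vehicle library of its line. These groups differ in R1881 as well as in siRNA and were not tested against each other. The share of all genes with such a separation was not counted.

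The calls of the partner genes with the dual knockdown rested on single libraries, and those in LNCaP on the processing as well. In LNCaP, SLC45A3 missed the threshold without siScr R1881 replicate 2 (0.20, adjusted p = 0.133) or replicate 3 (0.25, adjusted p = 0.0911) and without dual knockdown replicate 1 (0.26, adjusted p = 0.0623) or replicate 2 (0.20, adjusted p = 0.144), and its log2FC was 0.046 with the trend with GC content removed (adjusted p = 0.634). NDRG1 in LNCaP missed it without siScr R1881 replicate 1 (0.21, adjusted p = 0.0612) or replicate 2 (0.24, adjusted p = 0.0855) and without dual knockdown replicate 2 (0.19, adjusted p = 0.142). SLC45A3 in C4-2 missed it without siScr R1881 replicate 1 (0.32, adjusted p = 0.0677), replicate 2 (0.35, adjusted p = 0.053) or replicate 3 (0.36, adjusted p = 0.0507).

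ELK4 was the member whose response to the dual knockdown differed between the lines. In LNCaP it had 188, 197 and 231 CPM, below all siScr R1881 libraries, with a log2FC of −0.22 that missed the threshold (SE 0.0766, adjusted p = 0.0603). In C4-2 it had 259, 315 and 305 CPM, above all siScr R1881 libraries, and rose 1.29-fold (log2FC 0.36, SE 0.0956, adjusted p = 0.0129). The tested difference in log2FC was 0.61 (95% interval 0.35 to 0.87, adjusted p = 0.00286), and it passed in all 18 fits that left out 1 library. Of 9 members tested for this difference, ELK4 was the 1 called, where 10.9% of 18684 genes were called and 6.97% were higher in C4-2. The rise in C4-2 missed the threshold without siScr R1881 replicate 2 (0.32, adjusted p = 0.0665) and without dual knockdown replicate 2 (0.305, adjusted p = 0.0589) or replicate 3 (0.33, adjusted p = 0.0525), and the LNCaP value passed in 8 of its alternatives, DESeq2 (−0.24, adjusted p = 0.0174), RLE factors (0.0437), no filter (0.0196), only the groups compared (0.0205) and each of 4 fits without 1 library, the 3 LNCaP vehicle libraries and dual knockdown replicate 3 (adjusted p from 0.0176 to 0.0427). The knockdown was deeper in C4-2, as given above, and its part in this difference was not tested.

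ETV1 in LNCaP lay below all siScr R1881 libraries with the dual knockdown, at a log2FC of −0.15 (95% interval −0.27 to −0.03) that missed the threshold (adjusted p = 0.0779), and passed with DESeq2 (adjusted p = 0.0281) and without siScr R1881 replicate 1 (adjusted p = 0.0317). DGKB beside it had 27.9, 28.9 and 30.0 CPM, below all siScr R1881 libraries, and fell (log2FC −0.35, adjusted p = 0.0182). In C4-2, DGKB had a log2FC of 0.04, while MIPOL1 (log2FC 0.41, adjusted p = 0.00685) and FOXA1 (log2FC 0.39, adjusted p = 0.00167) rose. ETV1 in C4-2 had 12 counts with the dual knockdown against 18 with siScr, a ratio of 0.659 with an interval from 0.289 to 1.45. ETV5 in C4-2 had 24, 28 and 18 counts with the dual knockdown, above the 8, 13 and 12 with siScr, and its log2FC of 1.04 missed the threshold (SE 0.369, adjusted p = 0.0549). It passed with the likelihood ratio test (adjusted p = 0.036), with only the groups compared (0.0361), with the GC trend removed (0.0408) and without C4-2 vehicle replicate 3 (0.0384). ELF3 (log2FC 0.12 and 0.13 in the respective lines), ELK1 (0.13 and −0.10) and ETV4 in C4-2 (0.78, adjusted p = 0.351) were not called.

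Between the lines, 6 of the 9 members tested differed with vehicle, 3 higher and 3 lower in C4-2, where 58.9% of all genes were called, 29.4% higher and 29.5% lower. With R1881, 7 of 9 differed, 2 higher and 5 lower in C4-2, where 58.3% of all genes were called, 28.6% higher and 29.7% lower. With vehicle, C4-2 had more ELK1 (1.60-fold, adjusted p = 1.83e-06) and ELF3 (log2FC 0.36, adjusted p = 0.00877) and less NDRG1 (2.27-fold, adjusted p = 6.47e-08) and SLC45A3 (log2FC −0.48, adjusted p = 0.000526). ETV1 was lower and ETV4 higher in C4-2 (log2FC 1.52, adjusted p = 0.012, on overlapping libraries). The ELF3 call was lost without C4-2 vehicle replicate 2 (0.29, adjusted p = 0.0696), and the ETV4 call without that library (1.17, adjusted p = 0.128), without C4-2 vehicle replicate 1 (1.45, adjusted p = 0.0616) and without LNCaP vehicle replicate 2 (1.30, adjusted p = 0.0877). With R1881, C4-2 had less TMPRSS2 (1.94-fold), NDRG1 (2.64-fold), SLC45A3 (1.36-fold) and ELF3 (1.89-fold) and more ELK1 (1.52-fold). ETV5 was also higher in C4-2 with R1881 (log2FC 1.495, adjusted p = 0.0158), a call that was lost without LNCaP R1881 replicate 2 (1.16, adjusted p = 0.0822) or C4-2 R1881 replicate 2 (1.39, adjusted p = 0.0571) or 3 (1.39, adjusted p = 0.0565) and with no filter (1.51, adjusted p = 0.0512). ELK4 did not pass the test between the lines (log2FC −0.17 and −0.10). Every member call of R1881 and of the line comparison with vehicle was kept without the shallow C4-2 vehicle replicate 3, where TMPRSS2 rose by a log2FC of 3.07 and ELF3 fell by 1.70 in C4-2.

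Per length, as CPM per kb of exons, the order of the members changed with R1881. In LNCaP with vehicle ETV1 led at 28.9, followed by NDRG1 at 13.9, by TMPRSS2 (11.1) and ELK1 (11.01), which overlapped, by SLC45A3 (8.96) and ELK4 (8.58), which overlapped, and by ELF3 at 4.55. With R1881 the order in LNCaP was TMPRSS2 (197), SLC45A3 (141), NDRG1 (71.97), ETV1 (46.8), ELK4 (20.02), ELK1 (10.7) and ELF3 (3.61), with no overlap between neighbours. In C4-2 with vehicle ELK1 led at 17.5, then TMPRSS2 at 11.6 and ELK4 at 7.67, and SLC45A3, NDRG1 and ELF3 (6.201, 6.14 and 5.72) overlapped, as did ELK4 and NDRG1. In C4-2 with R1881, SLC45A3 (104) and TMPRSS2 (102) overlapped above NDRG1 (27.2), ELK4 (18.7), ELK1 (16.3) and ELF3 (1.91). LNCaP kept its R1881 order of these 7 genes with the dual knockdown, and in C4-2 SLC45A3 (133) and TMPRSS2 (117) overlapped, as did NDRG1 (25.4) and ELK4 (24.1). ETV4, ETV5 and ERG stayed under 0.25 in every group, and ETV1 stayed under 0.04 in C4-2.

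The 28 genes of the whole ETS family gave a setting for the 7 ETS members. ETV1 held 13.7% of the family's summed CPM per kb in LNCaP with vehicle, 14.4% with R1881 and 12.6% with the dual knockdown, and 0.010% or less in each C4-2 group. EHF, an epithelial ETS factor, held the most in both lines with vehicle, 37.9% in LNCaP and 47.5% in C4-2. SPDEF, the prostate-derived ETS factor, went from 12.0% to 25.7% with R1881 in LNCaP and from 14.8% to 24.6% in C4-2. With R1881, 6 of 19 family genes tested rose and 3 fell in LNCaP, and 6 of 22 rose and 4 fell in C4-2, beside 46.6% and 32.8% of all genes called. The median log2FC of the family was 0.04 in each line. SPDEF rose 3.31-fold in LNCaP (log2FC 1.73, adjusted p = 6.45e-11) and 2.44-fold in C4-2 (log2FC 1.28, adjusted p = 1.89e-06), FEV rose in C4-2 (log2FC 1.81, adjusted p = 0.000331) and, from 5 to 35 summed counts, in LNCaP (log2FC 2.76, adjusted p = 0.00108), a value named after it was seen, since its mean there is under 1 CPM, and ETV6 fell in LNCaP (log2FC −0.57, adjusted p = 0.000286).

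With the dual knockdown, 2 of 19 family genes rose in LNCaP, ERF and SPDEF, and in C4-2 4 of 22 rose and 3 fell, beside 14.2% and 23.5% of all genes called. ERF, a repressor that competes for ETS sites, fell with R1881 in both lines (log2FC −0.51 in LNCaP and −0.58 in C4-2) and rose with the dual knockdown in both (log2FC 0.56, adjusted p = 0.00555 and log2FC 0.52, adjusted p = 0.0126), values that share the siScr R1881 libraries. ELF2 rose (log2FC 0.44, adjusted p = 0.00257) and ETV3 fell (log2FC −0.41, adjusted p = 0.00543) in C4-2 with the dual knockdown. Between the lines with vehicle, 12 of 23 family genes were higher and 4 lower in C4-2, with ELF5 (log2FC 2.85), ELF4 (1.99) and FEV (3.23) among the higher, where 29.4% of all genes were higher and 29.5% lower. With R1881, 9 of the 23 were higher and 6 lower, where 28.6% of all genes were higher and 29.7% lower.

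**Figure D4:**
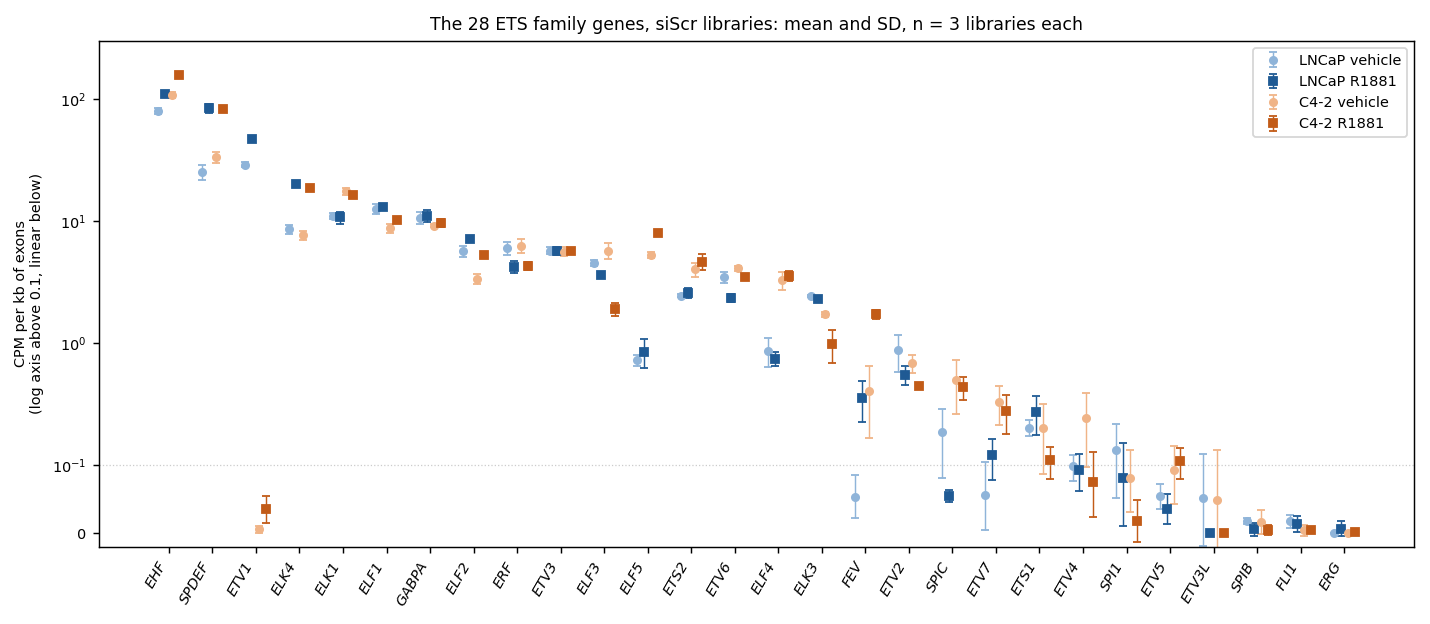
Mean CPM per kb of exons with SD of the 28 ETS family genes in the siScr libraries (vertical axis logarithmic above 0.1 and linear below, n = 3 libraries a group), circles for vehicle and squares for R1881, LNCaP in blue and C4-2 in orange. ETV1 is at 28.9 and 46.8 in LNCaP and close to 0 in C4-2, and ERG is at or near 0 in all groups.

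A list of 10 genes that lend their upstream part to fusions, TMPRSS2, SLC45A3 and NDRG1 included, had 7 genes higher and 2 lower with R1881 in LNCaP and 8 higher in C4-2, with a median log2FC of 1.73 and 1.30, beside 46.6% and 32.8% of all genes called. KLK2, a kallikrein protease, rose by 4.95 on the log2 scale in LNCaP and by 3.30 in C4-2, and ACSL3, a fatty acyl-CoA synthetase, by 3.23 and 2.82. After the knockdown 4 rose and 1 fell in LNCaP and 3 rose and 1 fell in C4-2, with ACSL3 the gene that fell (log2FC −0.35, adjusted p = 0.00204 and log2FC −0.60, adjusted p = 7.46e-05). Over all genes tested, the knockdown gave calls for 14.2% in LNCaP and 23.5% in C4-2. The difference in R1881 response passed for 6 of the 10, 4 lower and 2 higher in C4-2, with KLK2 (−1.68), TMPRSS2 (−1.04) and HERPUD1 (−0.81) among the lower and FOXP1 (0.63) among the higher. Over all genes tested for this difference, 14.0% were called and 7.95% were lower in C4-2. All 10 reference androgen targets rose with R1881 in both lines, with a median log2FC of 3.52 in LNCaP and 3.12 in C4-2. With the dual knockdown 3 rose and 3 fell in LNCaP and 2 rose and 2 fell in C4-2, beside the same 14.2% and 23.5%.

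Relatives of the partner genes moved in mixed directions. Of 11 tested, 3 rose and 2 fell with R1881 in LNCaP, and 1 rose and 1 fell in C4-2. Over all genes tested, 46.6% were called in LNCaP and 32.8% in C4-2. TMPRSS11E, another membrane serine protease, rose by a log2FC of 1.02 and 1.80, and NDRG3 rose in LNCaP by 0.40. The genes that fell were TMPRSS6 (log2FC −2.35) and TMPRSS13 (−0.75) in LNCaP and NDRG2 (−0.35) in C4-2. With the dual knockdown in LNCaP, 3 of the 11 rose, HPN, ST14 and NDRG2, and 0 fell, where 14.2% of all genes were called. In C4-2, 2 of the 11 rose and 1 fell with the dual knockdown, where 23.5% of all genes were called. Those that rose were NDRG3 (log2FC 0.95, adjusted p = 2.89e-06) and TMPRSS11E (log2FC 0.82, adjusted p = 0.000165), while NDRG1 and TMPRSS2 were not called.

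Genes known to act on or downstream of these ETS factors moved in mixed directions. Of 11 regulators of PEA3 factors, 2 rose and 2 fell with R1881 in LNCaP, and 2 rose and 3 fell in C4-2, beside 46.6% and 32.8% of all genes called. CIC, a repressor of the PEA3 genes, fell in both lines (log2FC −0.43 and −0.62). After the knockdown 1 rose and 1 fell in LNCaP and 1 rose and 3 fell in C4-2, ERF being the gene that rose in each. The shares of all genes called with the knockdown were 14.2% and 23.5%. Of 15 genes known as targets of ETS fusions in prostate, 5 rose and 1 fell of 10 tested with R1881 in LNCaP and 4 of 8 rose in C4-2, among them HPGD, a prostaglandin dehydrogenase gene (log2FC 7.89 and 5.77), CRISP3, a secreted protein gene (3.17 and 1.35), and PLA1A, a phospholipase gene (1.94 and 2.63). With the dual knockdown, 1 of these 10 fell in LNCaP and 0 rose, and 3 of 8 rose and 2 fell in C4-2. The shares of all genes called were again 14.2% and 23.5%. CRISP3 fell in both lines (log2FC −0.56 and −0.81), and in C4-2 HPGD fell (−0.52) while TDRD1 (1.02) and PLA1A (0.42) rose.

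Of the ERK feedback genes, 4 of 11 rose and 2 fell with R1881 in LNCaP, and 3 of 10 rose and 3 fell in C4-2, beside the same 46.6% and 32.8% of all genes called. DUSP4, an ERK phosphatase gene, rose in both lines (log2FC 1.75 and 1.49), and DUSP5, another, rose in LNCaP (1.17) and fell in C4-2 (−3.49), with a tested difference of −4.66 (adjusted p = 2.45e-08). Of the targets of serum response factor and its ELK partners, 1 of 8 rose and 3 fell in LNCaP and 1 of 7 rose and 2 fell in C4-2. EGR1 (log2FC −2.71) and FOS (−1.44), immediate early genes, fell in LNCaP, and NR4A1, an orphan nuclear receptor gene, rose in both lines (log2FC 1.30 and 1.34). With the dual knockdown 3 of these 8 rose in LNCaP, JUNB (log2FC 0.59), SRF itself (0.38) and NR4A1, where 14.2% of all genes were called and 8.27% were higher. In C4-2, 0 of the 7 tested were called with the dual knockdown, where 23.5% of all genes were.

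The genes whose pattern was most like that of a member were sought over the 18 libraries among 14933 genes, by the root-mean-square difference of centred log2(CPM + 1) values. For TMPRSS2 they included FKBP5 (0.217), a chaperone gene, and SLC45A3 (0.349). For SLC45A3 they were MYBPC1 (0.333), TMPRSS2 (0.349) and TRPM8 (0.443), and for NDRG1 ALDH1A3 (0.265), IGF1R (0.304) and SELENOP (0.336). For ETV1 the nearest were farther away, PEG3 (0.578), TMEFF2 (0.827) and ABCA12 (1.43). PEG3, a zinc finger gene, went from a mean of 984 CPM in LNCaP to 0.511 CPM in C4-2 with vehicle, and unlike ETV1 it was lower with R1881 in LNCaP, at 566 CPM.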

How the data were processed

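Gene expression was measured in 18 poly(A) RNA Seq libraries. The authors trimmed the read pairs with TrimGalore, aligned them to GRCh38 with STAR and deposited counts of read pairs per Ensembl (release 83) gene from featureCounts 1.5.0-p1, not normalised, counted without strand and without reads that map to several places. Libraries were grouped by sample title.

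Counts were tested with the quasi-likelihood F-test of edgeR 4.0.16 (R 4.3.3, limma 3.58.1), 2-sided, with TMM factors, filterByExpr (minimum count 10, minimum total 15) and Benjamini-Hochberg adjustment over all genes tested. The 9 libraries of a line were fitted in 1 model, and all 18 in 1 model for differences between the lines and between their responses. A call needed an adjusted p under 0.05. CPM used the TMM library sizes, and intervals are 95%. Figures and other steps used Python 3.11.15 with matplotlib 3.10.9, scipy 1.17.1, numpy 2.4.6 and pandas 2.3.3. The R1881 and dual knockdown tests in LNCaP were tried on simulated counts. The tests in C4-2 and those between the lines were not.

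The members, the lists and the alternatives were chosen with earlier results of these data known. Named genes were the 10 members, the demethylases, the neighbours of ETV1, and per list and comparison at most 4 called genes with the largest log2FC and a mean of at least 1 CPM. For 4 members the 3 genes most alike were named, with chromosome Y left out of the search. A result of this search is not reported here. Gene lengths came with the deposited counts (Ensembl release 83), symbols and GC content from GENCODE 29 and promoter windows from RefSeq (GRCh38.p14). Alternatives were RLE factors, DESeq2 1.42.0, the likelihood ratio test, other filters, only the groups compared, all 18 libraries, a replicate block, removal of the trend with GC content, and each library left out.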

Additional observations from a re-analysis of the deposited data

Results flagged for a closer look

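These results had a tested difference between the lines (interaction over all 18 libraries, edgeR's quasi-likelihood test, n = 3 libraries a group), given as the log2FC in C4-2 minus that in LNCaP. For the R1881 response the members were TMPRSS2 at −1.04 (adjusted p = 1.48e-06) and ELF3 at −1.28 (adjusted p = 8.74e-06), and 2 further genes were DGKB at −1.20 (adjusted p = 5.22e-06) and the ETS gene ELK3 at −0.72 (adjusted p = 0.0316). ELK3 fell with R1881 in C4-2 by 0.81 on the log2 scale (log2FC −0.81, adjusted p = 0.00593) and had a log2FC of −0.10 in LNCaP.

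For the response to the dual knockdown the member was ELK4 at 0.61 (adjusted p = 0.00286). The ETS gene ELF2 differed by 0.54 (adjusted p = 0.0052), and of the genes at the places of ETV1, MIPOL1 differed by 0.605 (adjusted p = 0.00224), FOXA1 by 0.345 (adjusted p = 0.018) and TMEM106B by −0.35 (adjusted p = 0.0484). KDM1A and KDM7A were lowered further in C4-2 than in LNCaP, and the part of that in these differences was not tested.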

How the results depend on the processing

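Of 1522 member values recomputed under an alternative, 1441 kept their direction and their side of the threshold, 36 lost a call, 19 gained one and 26 changed sign. TMPRSS2 and ELF3 kept their differing R1881 responses, and ELK4 its differing knockdown response, in every alternative run at an adjusted p under 0.05. For the dual knockdown in LNCaP the count of 2 called members became 4 with DESeq2, 3 with RLE factors, with no filter and with only the groups compared, and 0 with the GC trend removed (with and without the replicate block), in the fit of all 18 libraries and with a log2FC of at least 1, and 0 to 3 with 1 library left out. In C4-2 the count of 2 became 0 with a log2FC of at least 1 and 0 to 3 with 1 library left out, and it was 3, with ETV5 added, with the likelihood ratio test, with only the groups compared and with the GC trend removed (with and without the replicate block). A log2FC of at least 1 also left 3 of the 6 members differing between the lines with vehicle, 3 of the 7 with R1881, and 0 for the differing knockdown response, which had 2 with the GC trend removed (with and without the replicate block) and 1 to 2 with 1 library left out. The cause of these changes was not tested.

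The sign changes were all of values that had not been called. With the GC trend removed, without and with the replicate block, the log2FC was 0.048 and 0.047 for ELK1 with R1881 in LNCaP, 0.020 and 0.016 in C4-2, −0.014 and −0.014 for ELF3 and −0.019 and −0.018 for ELK1 with the knockdown in LNCaP, and −0.007 and −0.011 for the difference of ELK4 in R1881 response. ELK4 between the lines went to 0.053 with vehicle and 0.046 with R1881 with the GC trend removed. With 1 library left out, log2FC ranged from −0.126 to 0.05 for ELK1 with R1881 in LNCaP, −0.184 to 0.549 for ETV5 with R1881 in C4-2, −0.24 to 0.013 for NDRG1 with the knockdown in C4-2, −0.043 to 0.151 for TMPRSS2 between the lines with vehicle, −0.02 to 0.127 for SLC45A3 and −0.152 to 0.002 for ELK1 in the difference of R1881 response, and −0.067 to 0.147 for ELF3 in that of the knockdown response.

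Same-numbered libraries of different groups correlated at −0.111 to 0.191 in their deviations from the group mean, and differently numbered ones at −0.215 to 0.165. With 3 libraries a group, these values cannot settle whether same-numbered libraries share a culture or batch. With the replicate block, the counts of called members were 6 and 6 for R1881 in LNCaP and C4-2, 2 and 2 for the knockdown, 4 and 6 between the lines with vehicle and with R1881 (without and with the GC trend removed, the block left ETV4 at 1.53 and 1.29, adjusted p = 0.0917 and 0.143, and ELF3 at 0.30 and 0.19, adjusted p = 0.0804 and 0.172, with vehicle, and ETV5 at 0.77 and 0.79, adjusted p = 0.303 and 0.274, with R1881), 2 for the differing R1881 response and 1 for the differing knockdown response. ERG, ETV4 and ETV5 in both lines and ETV1 in C4-2 had few counts per library, which limits what their values can show.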
